A study of Homo sapiens with 4 samples.

Results

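The genes described here are the human factors that license replication origins, build and drive the replication fork, protect it and supply its nucleotides. They were chosen by name, as 57 genes in 8 steps of replication, and 56 of them had a row among the 40205 rows of the deposited table. The primase subunit gene PRIM2 had no row and was not analysed here. Poly(A) RNA-seq had been made from 2 human glioblastoma cell lines, U87MG and U251, both grown in DMEM with fetal bovine serum. The question was what changes in these lines when SRSF1, a splicing factor of the serine/arginine-rich family, is depleted with a short hairpin RNA. The 4 groups held 1 library each: U87MG with the sh-SRSF1 lentivirus (U87MG KD), U87MG with the sh-NC lentivirus (U87MG WT), U251 with sh-SRSF1 (U251 KD) and U251 with sh-NC (U251 WT). The cells labelled WT therefore also carried a lentivirus, with a control hairpin, and all 4 groups had been infected at a multiplicity of 20 and selected with puromycin for 1 week. Established lines model tumour cells in culture only, the labels name no additional hairpin against SRSF1, and they do not say whether each library had its own infection, so a p-value reflects the spread of these 4 libraries, which may be technical.

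DNA replication is prepared in G1 phase, when the origin recognition complex, CDC6 and CDT1 load the ring-shaped MCM helicase onto origins. In S phase the kinase CDC7 with DBF4 and the factors CDC45 and GINS turn the loaded ring into a moving helicase, primase and polymerase alpha lay down primers, polymerases epsilon and delta extend the leading and lagging strands, and PCNA, loaded by RFC, keeps them on the template. Ribonucleotide reductase, thymidylate synthase and thymidine kinase provide the deoxynucleotides. Many of these genes are transcribed at the G1/S boundary under E2F factors and are therefore high in dividing tumour cells and low in resting ones.

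The values were RPKM (reads scaled by the length of the gene model and the size of the library). Library totals, inferred from the steps of the RPKM values, ranged from 25099799 to 27953878 reads. SRSF1 itself stood at 14.6 RPKM in U87MG KD against 88.3 RPKM in U87MG WT, and at 15.8 RPKM in U251 KD against 109 RPKM in U251 WT (limma estimate -2.62 ± 0.16 (SE), adjusted p = 0.0022). The mesenchymal marker VIM was at 1065 to 1675 RPKM in the 4 libraries, and the glial marker GFAP was at or under 1.47 RPKM in all of them. SOX2, a stem cell factor, separated the lines, with 49.3 RPKM in U251 KD and 47.9 RPKM in U251 WT and no more than 0.12 RPKM in U87MG. Among markers of other cells, PTPRC (immune), PECAM1 and VWF (endothelial) and RBFOX3 (neuron) were at or under 0.13 RPKM and EPCAM (epithelial) at or under 0.62 RPKM. SYT1 (neuron) was at 3.21 to 6.76 RPKM in the 4 libraries, KRT18 (epithelial) at 19.9 RPKM in U251 KD against 22.4 RPKM in U251 WT, and the macrophage-associated gene CD68 was at 111 RPKM in U87MG KD against 62.4 RPKM in U87MG WT. The proliferation marker MKI67 moved with the replication genes, at 20.2 RPKM in U87MG KD against 91.1 RPKM in U87MG WT and at 47.6 RPKM in U251 KD against 124 RPKM in U251 WT. Its part in the results below was not tested, and in bulk RNA fewer cycling cells and less of these RNAs per cell cannot be told apart.

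Nearly all replication genes had less RNA after knockdown of SRSF1 in U87MG, and most had somewhat less in U251. On the scale log2(RPKM + 1), used for all ratios below, KD over WT was below 0 for 55 of 56 genes in U87MG and for 53 of 56 in U251, against 55.5% and 50.5% of all 16098 genes tested. The median ratio of the 56 genes was -1.24 in U87MG and -0.37 in U251, beside -0.05 and -0.0037 over all genes tested. A fall of at least 2-fold was seen for 38 of the 56 in U87MG (3.58% of all genes) and for 9 of the 56 in U251 (1.71%), and the 9 were also at least 2-fold lower in U87MG (0.59% of all genes were so in both lines). These 9 were POLE3, RRM2, POLA1, CLSPN, POLA2, LIG1, CDC7, CHAF1B and RFC1. With 1 library per group these within-line values have no replicate check.

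Across the lines, limma with cell line as a block called 20 of the 56 genes lower in KD at an adjusted p under 0.05 and none higher, where it called 2.61% of all genes lower and 1.16% higher. All 56 estimates were negative (ORC3 alone turned to 0.01 after trimmed-mean rescaling), 44 were lower at an unadjusted p under 0.05 (12.8% of all genes tested) and 0 were higher at that level (8.29%). The 20 estimates ran from -2.39 to -0.81 with standard errors (SE) of 0.17 to 0.27. The steps were unevenly represented among the 20: all 4 nucleotide supply genes, both flap and ligation genes, 5 of 9 polymerase subunits, 6 of 14 helicase genes, 2 of 9 fork protection and chromatin assembly genes, 1 of 6 clamp and loader genes, 0 of 9 origin licensing genes and 0 of 3 S phase regulators. The count and the share of each step depended on the setting. After trimmed-mean rescaling of the libraries 6 were called (0.28% of all genes), and 6 with a pseudocount of 5 RPKM (0.323%). Those called under both were CDC7, CHAF1B, LIG1, POLA1, POLE3 and RFC1, with no nucleotide supply gene among them. With a minimum of 5 RPKM the origin licensing genes ORC1 and CDC6 were among 28 called (5.65% of all genes). None was called without the block or without the filter on low values, where 0 of all genes were called either.

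**Figure D1:**
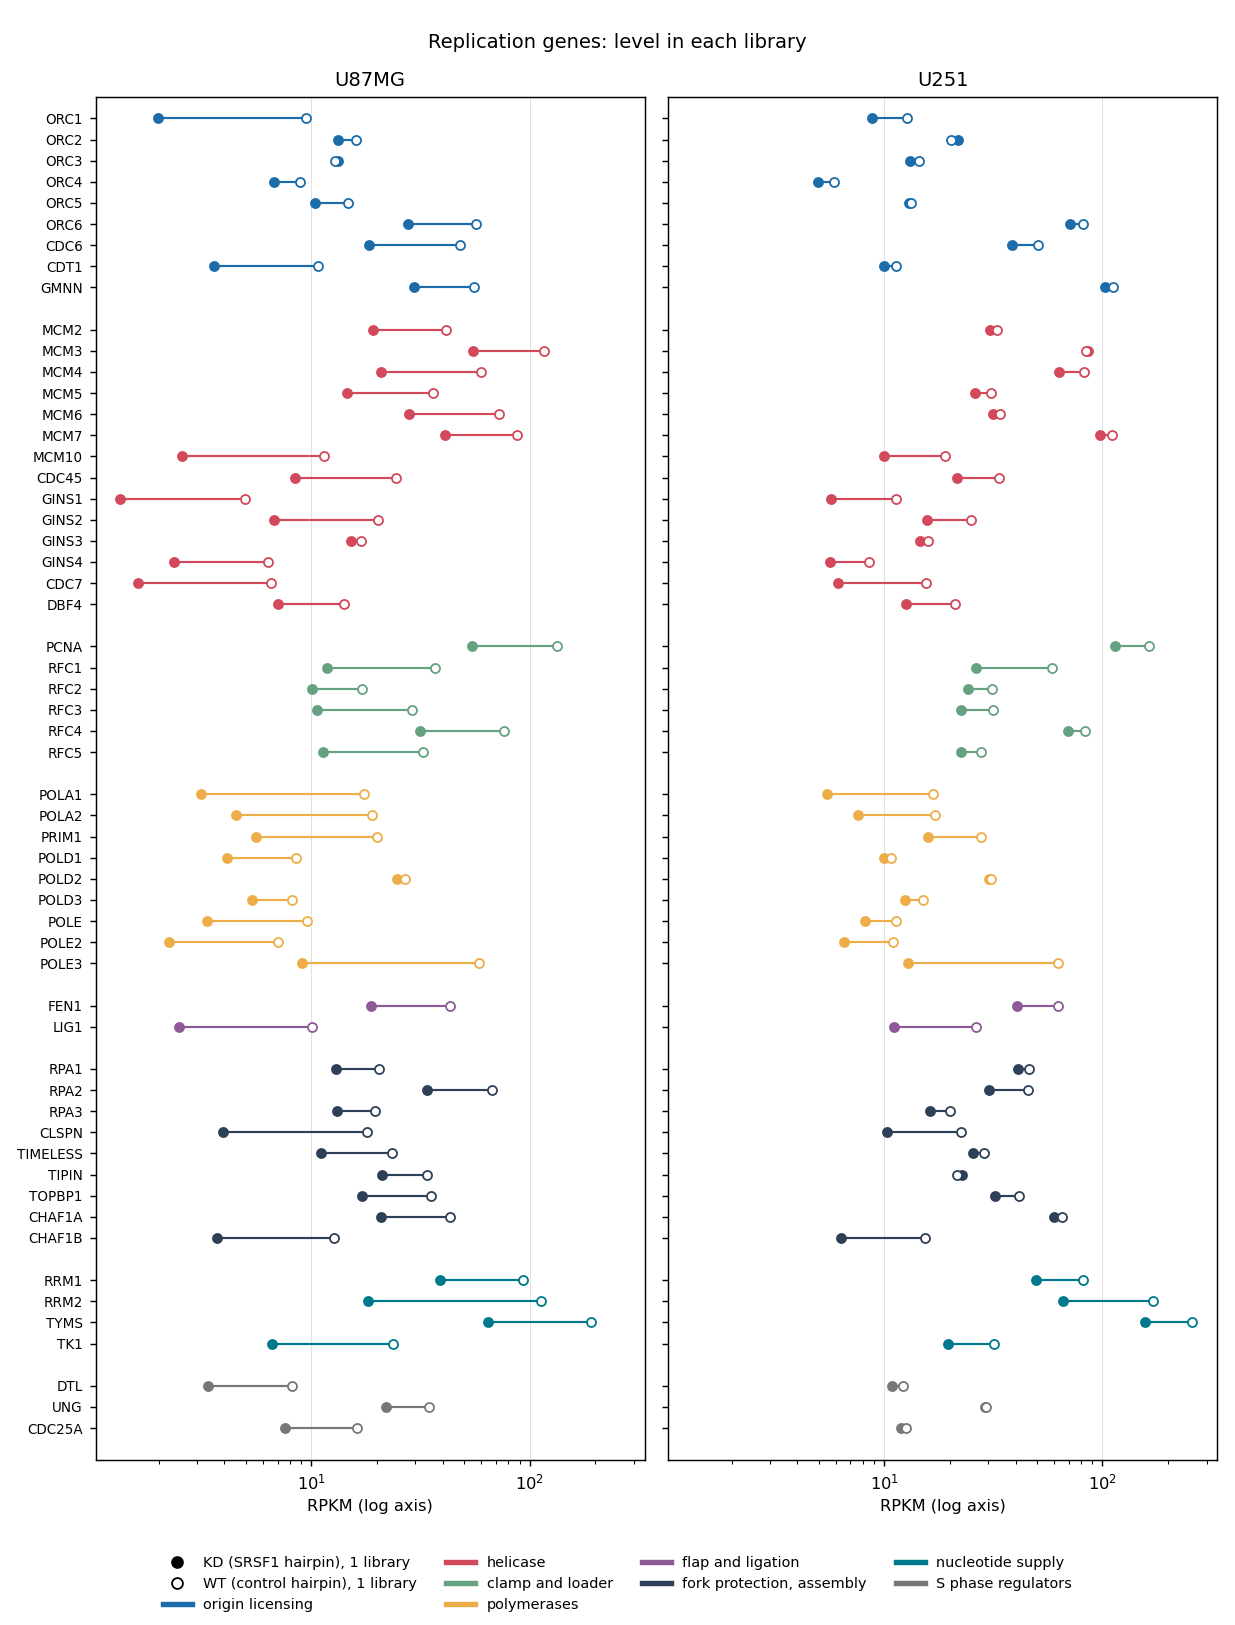
RPKM of the 56 replication genes in the 4 libraries, grouped by step, with 1 panel per line and RPKM along a horizontal log10 axis. Each point is 1 library, filled for KD and open for WT, and the genes run down the vertical axis. In the U87MG panel the KD points lie left of the WT points for all genes but ORC3. The median over the 56 genes was 11.2 RPKM in U87MG KD against 21.9 RPKM in U87MG WT, and 21.7 RPKM in U251 KD against 28.2 RPKM in U251 WT.

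The counting error was small beside the U87MG differences. All 56 genes had at least 1 RPKM in every library, the lowest being GINS1 in U87MG KD at 1.33 RPKM, and the recovered reads per gene and library ran from 103 to 14732. From those reads the 95% exact interval of the KD to WT read ratio lay below 1 for 55 genes in U87MG and for 47 in U251. It lay above 1 only for ORC2 in U251, at 1.07 (1.01 to 1.14). These intervals cover counting error only and say nothing of the variation between cultures. The share of all genes with such intervals was not computed, so the counts of 55 and 47 have no background beside them.

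The ratio was lower in U87MG than in U251 for 55 of 56 genes, where the same held for 57.1% of all genes tested. The median difference of the ratios, U87MG minus U251, was -0.77 and ran from -1.33 for ORC1 to 0.18 for ORC3. The genes nevertheless kept a similar order, with r = 0.79 and rho = 0.78 across the 56 genes, which share their libraries and are not independent, beside r = 0.48 over all genes tested. Of 22 genes whose U251 ratio was above -0.25, 10 were at least 2-fold lower in U87MG, beside 126 of 12129 such genes in the whole table (1.04%). The difference between the lines cannot be tested with 1 library per line and arm, because it is the only residual of the fit and so counts there as error.

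**Figure D2:**
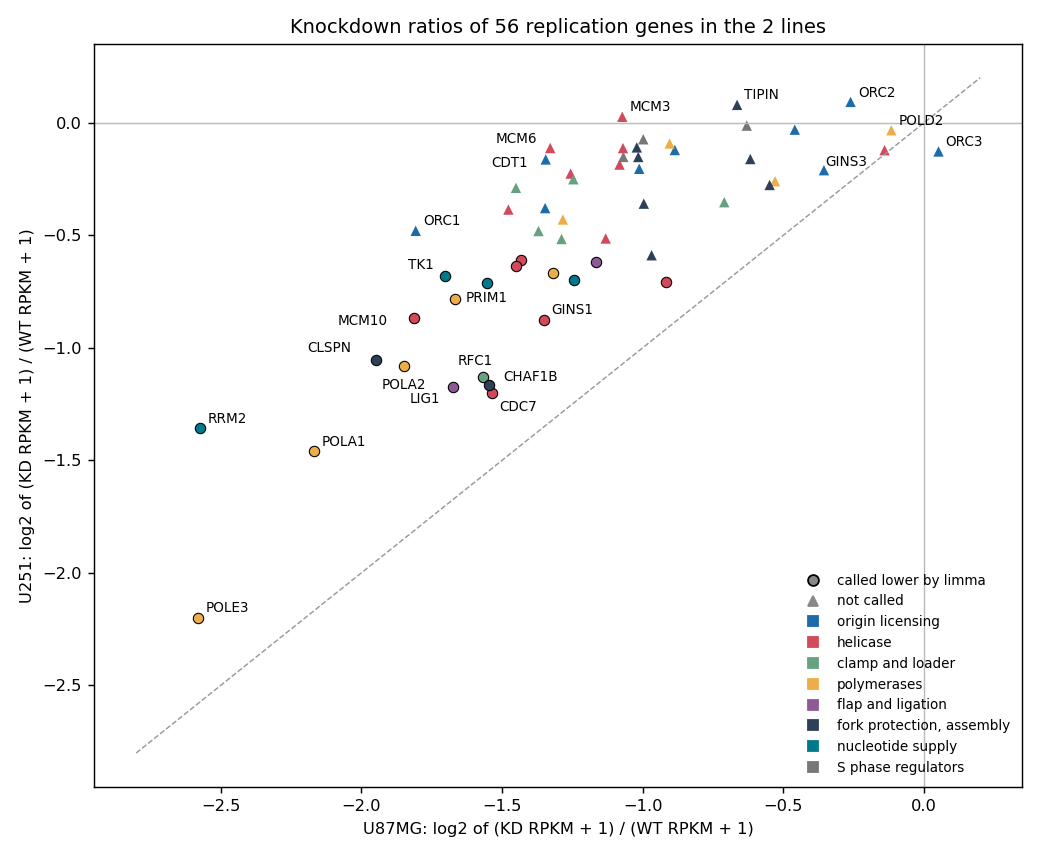
KD over WT ratio on the log2(RPKM + 1) scale in U87MG (horizontal) and U251 (vertical) for 56 replication genes, coloured by step; circles with a black rim are the 20 genes called lower by limma, triangles were not called, and the dashed line marks equal ratios. All genes but ORC3 lie above the dashed line, and POLE3, POLA1 and RRM2 lie farthest to the lower left.

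Promoter sequences are shown for 4 genes to let the arrangement of E2F and CCAAT letters be read: POLA1, MCM6 and PCNA carry both, and RRM2 carries the CCAAT letters alone. Each is the stretch of 250 bases before the start site, from the RefSeq promoter table of GRCh38.p14 and written in the direction of the gene, with capitals on the matches to the E2F core (TTCCCGC or TTGGCGC, or the other strand) and to the CCAAT box (CCAAT or the other strand). POLA1 encodes the catalytic subunit of polymerase alpha, MCM6 a helicase ring subunit, PCNA the sliding clamp, and RRM2 the small subunit of ribonucleotide reductase.
POLA1, chrX:24693668-24693917, plus strand: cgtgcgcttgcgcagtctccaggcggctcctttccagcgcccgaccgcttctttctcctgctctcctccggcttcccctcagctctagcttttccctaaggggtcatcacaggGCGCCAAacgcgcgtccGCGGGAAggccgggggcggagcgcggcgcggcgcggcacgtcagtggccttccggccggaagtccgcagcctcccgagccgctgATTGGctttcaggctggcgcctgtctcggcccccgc
MCM6, chr2:135876444-135876693, minus strand: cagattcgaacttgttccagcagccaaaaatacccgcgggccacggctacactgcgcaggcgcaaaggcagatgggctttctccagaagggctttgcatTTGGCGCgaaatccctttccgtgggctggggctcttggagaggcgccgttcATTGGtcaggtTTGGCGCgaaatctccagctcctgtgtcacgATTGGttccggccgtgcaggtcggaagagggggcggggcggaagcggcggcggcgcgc
PCNA, chr20:5126623-5126872, minus strand: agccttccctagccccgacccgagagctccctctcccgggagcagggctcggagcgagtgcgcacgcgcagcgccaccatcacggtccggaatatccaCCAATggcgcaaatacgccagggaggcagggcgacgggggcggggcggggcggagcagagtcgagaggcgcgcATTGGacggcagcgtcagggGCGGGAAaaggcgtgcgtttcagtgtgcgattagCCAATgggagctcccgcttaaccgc
RRM2, chr2:10122489-10122738, plus strand: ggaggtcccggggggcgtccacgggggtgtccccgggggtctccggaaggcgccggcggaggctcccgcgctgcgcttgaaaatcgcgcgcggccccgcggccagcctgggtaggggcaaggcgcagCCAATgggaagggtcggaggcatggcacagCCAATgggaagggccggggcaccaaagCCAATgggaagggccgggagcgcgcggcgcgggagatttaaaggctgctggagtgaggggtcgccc

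In the full 300-base windows, which reach 50 bases past the start site, POLA1 held 3 E2F cores and 1 CCAAT box, MCM6 held 2 of each, PCNA held 1 E2F core and 3 CCAAT boxes, and RRM2 held 3 CCAAT boxes and no E2F core. POLE3, the gene with the lowest estimate, held neither. A window was in the table for 50 of the 56 genes, and 31 of the 50 (62.0%) held an E2F core, against 9.33% of all 27305 windows and 15.04% of 9242 windows of tested genes. The CCAAT box was in 29 of 50 windows (58.0%), against 35.7% of all windows and 37.8% of those of tested genes, and it overlapped an E2F core in 6 of them. The cell-cycle homology letters TTTGAA or TTTAAA, on either strand, were in 4 of 50 (8.0%), against 24.3% of all windows and 15.7% of those of tested genes. The 31 genes with an E2F core had median ratios of -1.32 in U87MG and -0.43 in U251, and the 19 without had medians of -1.02 and -0.21. Over all tested genes with a window, the 1390 with an E2F core had medians of -0.14 and -0.07. The 7852 without had medians of -0.05 and 0. A match is a string of letters and not a measured binding site.

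**Figure D3:**
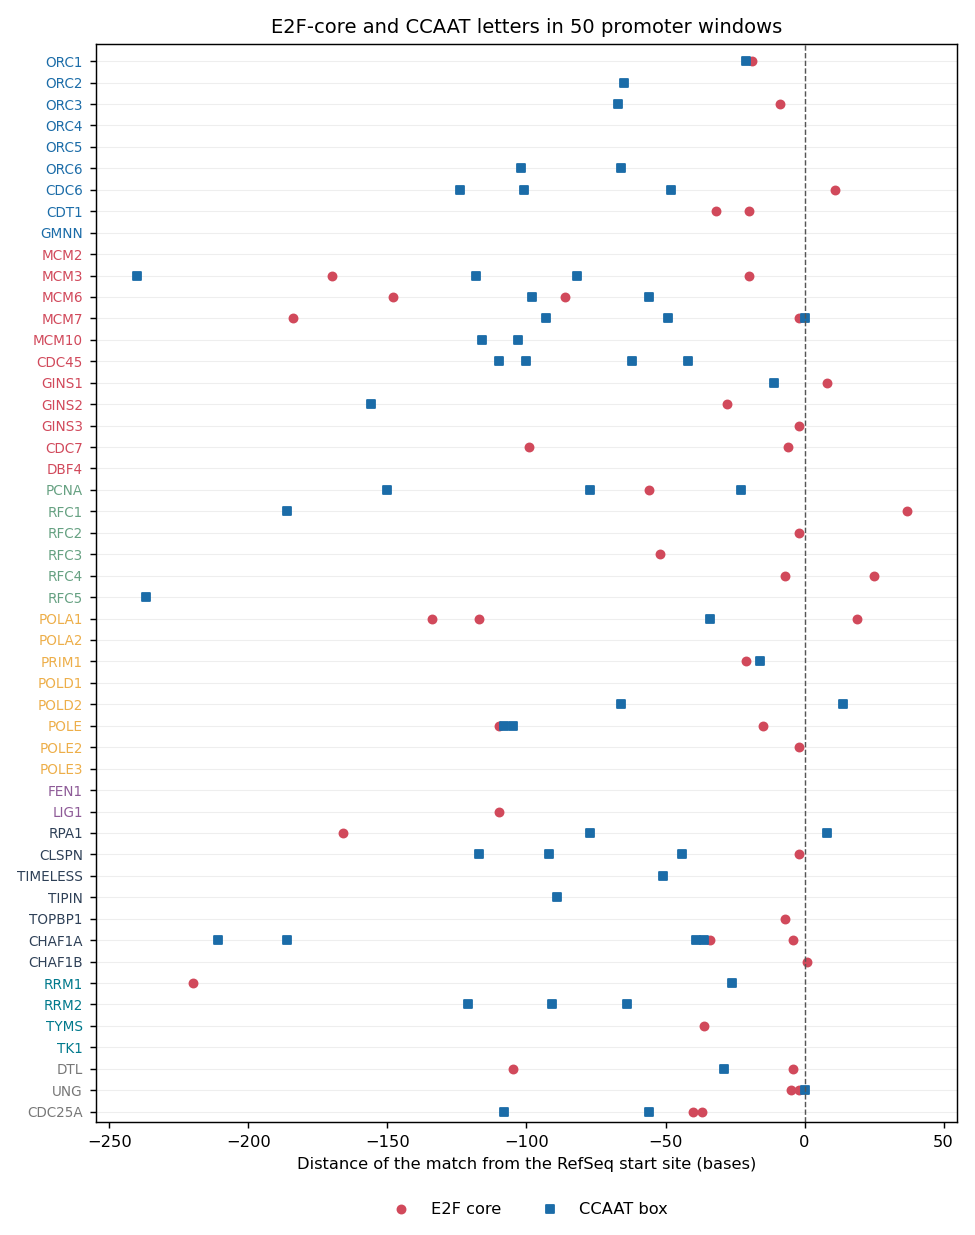
Positions of E2F core and CCAAT matches in the promoter windows of the replication genes with a window, as distance in bases from the RefSeq start site at 0; each line is 1 gene. Of 44 E2F core matches, 33 began between 100 bases before the start site and the end of the window.

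Of the 9 origin licensing genes 8 were lower in U87MG KD than in U87MG WT and 8 were lower in U251 KD than in U251 WT, and none passed the test. Their median ratio was -0.89 in U87MG and -0.16 in U251. ORC1, the largest subunit of the origin recognition complex, had 1.99 RPKM in U87MG KD against 9.47 RPKM in U87MG WT, and 8.79 RPKM in U251 KD against 12.7 RPKM in U251 WT. Its estimate was -1.14 ± 0.29 (SE; limma adjusted p = 0.075), and its ratio differed more between the lines than that of any other of the 56 genes. CDC6, the ATPase that loads MCM with ORC, had 18.3 RPKM in U87MG KD against 48.0 RPKM in U87MG WT, and 38.6 RPKM in U251 KD against 50.5 RPKM in U251 WT (limma adjusted p = 0.093). At the other end, ORC3, a core ORC subunit, had 13.3 RPKM in U87MG KD against 12.8 RPKM in U87MG WT and 13.1 RPKM in U251 KD against 14.4 RPKM in U251 WT, so the groups overlapped. ORC2, ORC4 and ORC5 had ratios between -0.46 and -0.26 in U87MG and between -0.21 and 0.09 in U251, while ORC6 had -1.01 and -0.20. CDT1, which brings MCM to ORC, had 3.60 RPKM in U87MG KD against 10.7 RPKM in U87MG WT and 9.99 RPKM in U251 KD against 11.3 RPKM in U251 WT. Its inhibitor geminin (GMNN) had 29.6 RPKM in U87MG KD against 55.5 RPKM in U87MG WT and 103 RPKM in U251 KD against 112 RPKM in U251 WT. The level of CDT1 relative to GMNN, both per kilobase, was 0.122 in U87MG KD against 0.192 in U87MG WT, and 0.0972 in U251 KD against 0.101 in U251 WT.

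The helicase genes split into the MCM ring and its activators. All 6 ring subunits, MCM2 to MCM7, were at least 2-fold lower in U87MG KD, none was so in U251 KD, and none was called. Their median ratio was -1.17 in U87MG and -0.15 in U251. MCM6 had 28.1 RPKM in U87MG KD against 72.1 RPKM in U87MG WT, and 31.4 RPKM in U251 KD against 34.0 RPKM in U251 WT. MCM3 had 54.99 RPKM in U87MG KD against 117 RPKM in U87MG WT, and 85.8 RPKM in U251 KD against 84.2 RPKM in U251 WT. For MCM3 the read ratio was 0.471 (95% interval 0.455 to 0.488) in U87MG and 1.02 (0.986 to 1.05) in U251. The spread of levels within the ring was similar in the 4 libraries, with the highest subunit 3.78 times the lowest in U87MG KD against 3.23 in U87MG WT, and 3.73 in U251 KD against 3.61 in U251 WT. MCM5 was the lowest subunit in all 4 libraries, while the highest was MCM3 in both U87MG libraries and MCM7 in both U251 libraries.

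The 8 activators of the helicase were lower in both KD libraries than in the WT library of the same line, and 6 were called. MCM10, which binds the ring and is needed to start unwinding, had 2.55 RPKM in U87MG KD against 11.5 RPKM in U87MG WT, and 9.98 RPKM in U251 KD against 19.0 RPKM in U251 WT, and fell by an estimate of -1.34 ± 0.23 (limma adjusted p = 0.029). CDC7, the kinase that phosphorylates MCM, had 1.60 RPKM in U87MG KD against 6.54 RPKM in U87MG WT, and 6.17 RPKM in U251 KD against 15.5 RPKM in U251 WT (-1.37 ± 0.17, limma adjusted p = 0.015). Its activating subunit DBF4 had 7.05 RPKM in U87MG KD against 14.2 RPKM in U87MG WT, and 12.6 RPKM in U251 KD against 21.2 RPKM in U251 WT (-0.81 ± 0.17, limma adjusted p = 0.045). For both kinase genes each KD library was below the WT library of its line by a similar ratio, -1.54 and -1.20 for CDC7 and -0.92 and -0.71 for DBF4. DBF4 shares 28.6% of its 31-base words with transcripts of other genes, most of all with DBF4P1. DBF4P1 stood at or under 0.324 RPKM in every library. CDC45, which joins MCM and GINS in the active helicase, had 8.42 RPKM in U87MG KD against 24.4 RPKM in U87MG WT, and 21.7 RPKM in U251 KD against 33.5 RPKM in U251 WT (limma adjusted p = 0.049).

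The 4 GINS subunits, which form a fixed complex, had unlike ratios. GINS1 had 1.33 RPKM in U87MG KD against 4.95 RPKM in U87MG WT, and 5.72 RPKM in U251 KD against 11.3 RPKM in U251 WT (-1.11 ± 0.18, limma adjusted p = 0.025). GINS2 had 6.72 RPKM in U87MG KD against 20.1 RPKM in U87MG WT, and 15.8 RPKM in U251 KD against 25.1 RPKM in U251 WT (-1.04 ± 0.22, limma adjusted p = 0.047). GINS3, by contrast, had 15.3 RPKM in U87MG KD against 16.9 RPKM in U87MG WT, and 14.5 RPKM in U251 KD against 15.9 RPKM in U251 WT, with ratios of -0.14 and -0.12. The highest GINS subunit was 11.4 times the lowest in U87MG KD against 4.06 times in U87MG WT, and 2.78 times in U251 KD against 2.94 times in U251 WT. GINS4 had ratios of -1.13 and -0.51 and was not called.

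**Figure D4:**
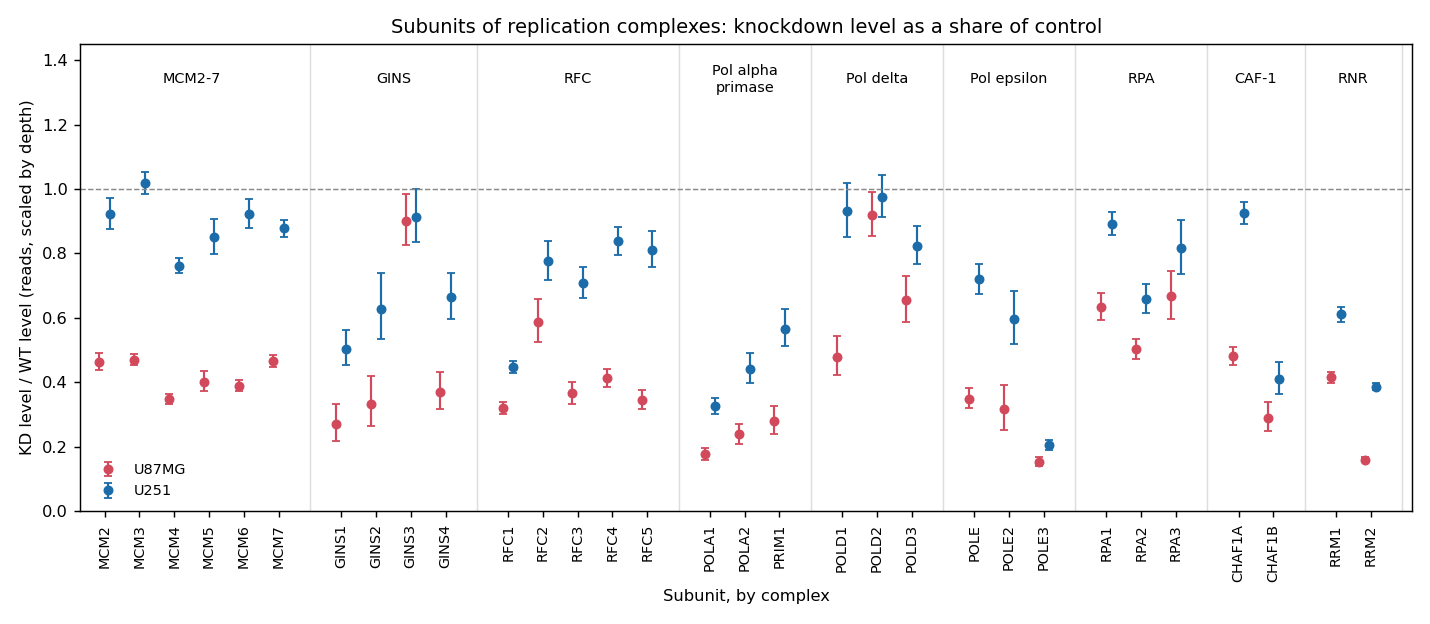
KD to WT read ratio, scaled by depth, for subunits of 9 replication complexes in U87MG and U251; points are single-library ratios, bars are 95% exact counting intervals, and the dashed line marks no difference. The U251 points of MCM2 to MCM7 lie between 0.763 and 1.02 and their U87MG points between 0.349 and 0.471, whereas both points of POLE3 lie at or under 0.205.

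Of the clamp and its loader, only RFC1 fell by the test. RFC1, the large subunit of the clamp loader, had 11.9 RPKM in U87MG KD against 37.0 RPKM in U87MG WT, and 26.3 RPKM in U251 KD against 58.7 RPKM in U251 WT, an estimate of -1.35 ± 0.18 (limma adjusted p = 0.016). The small loader subunits RFC2 to RFC5 had U251 ratios of -0.48 to -0.25 and U87MG ratios of -1.45 to -0.71. RFC3 had 10.6 RPKM in U87MG KD against 29.03 RPKM in U87MG WT, and 22.4 RPKM in U251 KD against 31.6 RPKM in U251 WT. RFC2 had 10.1 RPKM in U87MG KD against 17.1 RPKM in U87MG WT, and 24.2 RPKM in U251 KD against 31.2 RPKM in U251 WT. PCNA, the clamp itself, had 54.4 RPKM in U87MG KD against 134 RPKM in U87MG WT, and 114 RPKM in U251 KD against 164 RPKM in U251 WT, and missed the threshold (limma adjusted p = 0.058). Each of the 6 genes was lower in both KD libraries than in the WT library of the same line.

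The polymerase genes held the lowest estimate of the 56, and 5 of the 9 tested were called. All 3 measured subunits of polymerase alpha and primase fell. POLA1 had 3.11 RPKM in U87MG KD against 17.5 RPKM in U87MG WT, and 5.44 RPKM in U251 KD against 16.7 RPKM in U251 WT (-1.81 ± 0.21, limma adjusted p = 0.011). POLA2, its accessory subunit, had 4.52 RPKM in U87MG KD against 18.9 RPKM in U87MG WT, and 7.60 RPKM in U251 KD against 17.2 RPKM in U251 WT (-1.46 ± 0.21, limma adjusted p = 0.020). PRIM1, the catalytic primase subunit, had 5.58 RPKM in U87MG KD against 19.9 RPKM in U87MG WT, and 15.8 RPKM in U251 KD against 27.9 RPKM in U251 WT (-1.22 ± 0.23, limma adjusted p = 0.033). The subunits were at like levels in WT cells, the highest being 1.14 times the lowest in U87MG and 1.67 times in U251. By GENCODE 29 models, 57.6% of the 31-base words of POLA2 and 29.5% of those of PRIM1 also occur in transcripts of other genes. The gene sharing most words was AP000944.2 for POLA2 and AC117378.1 for PRIM1. On the same strand, AP000944.2 overlaps 35.1% of the exonic bases of POLA2, and AC117378.1 overlaps 14.9% of those of PRIM1. Reads of POLA2 and PRIM1 could therefore have been split or left out.

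Polymerase epsilon, the leading-strand enzyme, contained the gene with the lowest estimate of the 56. POLE3, a small histone-fold subunit, had 9.02 RPKM in U87MG KD against 58.9 RPKM in U87MG WT, and 12.8 RPKM in U251 KD against 62.4 RPKM in U251 WT. Its estimate was -2.39 ± 0.18 (limma adjusted p = 0.0045), rank 6 from the lowest among 16098 genes. The read ratio was 0.153 (95% interval 0.140 to 0.168) in U87MG and 0.205 (0.190 to 0.221) in U251, and the log2 ratios were -2.58 and -2.20. POLE2, an accessory subunit, had 2.23 RPKM in U87MG KD against 7.07 RPKM in U87MG WT, and 6.57 RPKM in U251 KD against 11.03 RPKM in U251 WT (-0.99 ± 0.20, limma adjusted p = 0.043). The catalytic subunit POLE had ratios of -1.28 and -0.43 and was not called. The small subunit gene POLE4, the histone-fold partner of POLE3 and taken from the list of other replication factors after its values were seen, had 25.8 RPKM in U87MG KD against 28.4 RPKM in U87MG WT, and 17.4 RPKM in U251 KD against 14.3 RPKM in U251 WT, and was not called. Among POLE, POLE2 and POLE3, POLE3 was the highest in every library, and the highest subunit was 4.04 times the lowest in U87MG KD against 8.33 times in U87MG WT, and 1.95 times in U251 KD against 5.66 times in U251 WT.

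A 7-letter string, GACGTGT, was found earlier in these same data in 3' UTRs of genes with low ratios in both lines, and POLE3 is one of 3 replication genes whose 3' UTR holds it. The 30 bases around each match in the GENCODE 29 transcripts (GRCh38) are shown because POLE3 was the gene with the lowest estimate, with the string in capitals.
POLE3, chr9:113407324-113407353, minus strand: tgacaggtagtGACGTGTagtttgacactg
RPA1, chr17:1899025-1899054, plus strand: taccaggacagGACGTGTccagggaacgct
RPA2, chr1:27891645-27891674, minus strand: acacttgccatGACGTGTgtttctgtgaac

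The string occurred in 3 of the 56 genes (5.36%) and in 351 of 11176 tested genes with a 3' UTR (3.14%), whose median ratios were -0.28 in U87MG and -0.26 in U251, beside -0.05 and -0.0038 for the genes without it. Among the 56 genes the 3 carriers had medians of -0.97 and -0.59, and the others -1.25 and -0.36. The ratios of the other carriers were smaller than that of POLE3. RPA1 had 12.9 RPKM in U87MG KD against 20.4 RPKM in U87MG WT, and 41.1 RPKM in U251 KD against 46.1 RPKM in U251 WT. RPA2 had 33.9 RPKM in U87MG KD against 67.3 RPKM in U87MG WT, and 30.1 RPKM in U251 KD against 45.7 RPKM in U251 WT (limma adjusted p = 0.055). The string was found on these same ratios, so it adds no independent evidence, and its part in the level of POLE3 was not tested.

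Polymerase delta, the lagging-strand enzyme, had no gene called. The median ratio of POLD1, POLD2 and POLD3 was -0.53 in U87MG and -0.09 in U251, and POLD3 had -0.53 and -0.26. POLD4, taken from the list of other replication factors after its values were seen, had -0.27 in U87MG and -0.43 in U251. POLD2, the small subunit that holds the complex together, had 24.7 RPKM in U87MG KD against 26.9 RPKM in U87MG WT, and 30.2 RPKM in U251 KD against 30.97 RPKM in U251 WT. The catalytic subunit POLD1 had 4.09 RPKM in U87MG KD against 8.53 RPKM in U87MG WT, and 9.99 RPKM in U251 KD against 10.7 RPKM in U251 WT. Both flap and ligation genes, which finish the lagging strand, fell. The flap nuclease gene FEN1 had 18.8 RPKM in U87MG KD against 43.4 RPKM in U87MG WT, and 40.6 RPKM in U251 KD against 62.8 RPKM in U251 WT (-0.89 ± 0.19, limma adjusted p = 0.048). The replicative ligase gene LIG1 had 2.47 RPKM in U87MG KD against 10.1 RPKM in U87MG WT, and 11.1 RPKM in U251 KD against 26.2 RPKM in U251 WT (-1.42 ± 0.18, limma adjusted p = 0.015).

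Among the fork protection and chromatin assembly genes CLSPN and CHAF1B fell, and the 3 RPA genes, whose products coat single-stranded DNA, were not called. CLSPN, encoding claspin, the mediator between the fork and the kinase CHK1, had 3.93 RPKM in U87MG KD against 18.02 RPKM in U87MG WT, and 10.3 RPKM in U251 KD against 22.5 RPKM in U251 WT (-1.50 ± 0.23, limma adjusted p = 0.021). The fork-pausing complex genes TIMELESS and TIPIN, which act with claspin, differed from it: TIPIN had 21.1 RPKM in U87MG KD against 34.04 RPKM in U87MG WT, and 22.7 RPKM in U251 KD against 21.5 RPKM in U251 WT. TIMELESS had ratios of -1.02 and -0.15. The subunits of chromatin assembly factor 1, which deposits histones behind the fork, also differed in U251. CHAF1B had 3.70 RPKM in U87MG KD against 12.7 RPKM in U87MG WT, and 6.34 RPKM in U251 KD against 15.5 RPKM in U251 WT (-1.36 ± 0.18, limma adjusted p = 0.015). CHAF1A had 20.8 RPKM in U87MG KD against 43.1 RPKM in U87MG WT, and 60.1 RPKM in U251 KD against 65.0 RPKM in U251 WT, and was not called.

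All 4 nucleotide supply genes fell. RRM2 had 18.2 RPKM in U87MG KD against 113 RPKM in U87MG WT, and 66.2 RPKM in U251 KD against 171 RPKM in U251 WT (-1.96 ± 0.27, limma adjusted p = 0.018), rank 11 from the lowest of all genes tested. By GENCODE 29 models 33.1% of its 31-base words also occur in transcripts of other genes, most of all in AC007240.1. That gene overlaps 20.2% of the exonic bases of RRM2 on the same strand. The level of RRM2 is therefore less certain than that of genes that share no words. RRM1, the large reductase subunit, had 39.1 RPKM in U87MG KD against 93.8 RPKM in U87MG WT, and 49.8 RPKM in U251 KD against 81.5 RPKM in U251 WT (-0.97 ± 0.19, limma adjusted p = 0.036). The level of RRM2 relative to RRM1, both per kilobase, was therefore 0.466 in U87MG KD against 1.21 in U87MG WT, and 1.33 in U251 KD against 2.10 in U251 WT. TYMS, thymidylate synthase, was the highest of the 56 genes in every library, with 64.4 RPKM in U87MG KD against 191 RPKM in U87MG WT, and 157 RPKM in U251 KD against 259 RPKM in U251 WT (-1.13 ± 0.21, limma adjusted p = 0.034). TK1, the thymidine salvage kinase, had 6.59 RPKM in U87MG KD against 23.7 RPKM in U87MG WT, and 19.6 RPKM in U251 KD against 32.0 RPKM in U251 WT (-1.19 ± 0.25, limma adjusted p = 0.045). By GENCODE 29 models ENOSF1, on the opposite strand, overlaps 39.1% of the exonic bases of TYMS, and it stood at 7.65 RPKM in U87MG KD against 6.45 RPKM in U87MG WT and at 0.153 RPKM in U251 KD against 0.288 RPKM in U251 WT, well under TYMS.

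The 3 S phase regulators were lower in both KD libraries than in the WT library of the same line, with U87MG ratios of -1.07 to -0.63 and U251 ratios of -0.15 to -0.01, and none was called. DTL, the substrate adaptor of the ligase that destroys CDT1, had 3.37 RPKM in U87MG KD against 8.16 RPKM in U87MG WT, and 10.8 RPKM in U251 KD against 12.1 RPKM in U251 WT. CDC25A, the phosphatase that activates CDK2, had 7.61 RPKM in U87MG KD against 16.2 RPKM in U87MG WT, and 12.0 RPKM in U251 KD against 12.6 RPKM in U251 WT. UNG, which removes uracil from DNA, had 21.9 RPKM in U87MG KD against 34.5 RPKM in U87MG WT, and 29.1 RPKM in U251 KD against 29.4 RPKM in U251 WT.

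The levels of the replication genes also differed between the lines, mainly between the KD libraries. In the KD libraries 52 of 56 genes were lower in U87MG than in U251 (55.3% of all genes tested), with a median log2 difference of -1.07, and 32 were at least 2-fold lower (14.5% of all genes) and 0 at least 2-fold higher (10.7%). In the WT libraries 41 of 56 were lower in U87MG (51.3% of all genes), with a median of -0.29. There 4 were at least 2-fold lower (12.1% of all genes), or 7.14% of the 56, and 1 was at least 2-fold higher (9.48%). LIG1 was the lowest of these differences at -1.30, and MCM6 was the 1 gene at least 2-fold higher, with 72.1 RPKM in U87MG WT against 34.0 RPKM in U251 WT. In the same limma fit 32 of 56 genes were called lower in U87MG than in U251 and 0 higher, where 27% of all genes were called lower and 21.6% higher.

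Other genes of replication, from lists chosen by function, were called in small numbers, with 2.61% of all genes tested called lower; differences between these lists and the 56 genes were not tested. Of 20 tested among 21 other replication factors, 1 was called lower and 0 higher, a share near that of all genes, while the median ratios were -0.77 in U87MG and -0.35 in U251. The called gene was TICRR, which activates origins, with 1.49 RPKM in U87MG KD against 4.504 RPKM in U87MG WT and 4.63 RPKM in U251 KD against 8.12 RPKM in U251 WT. RNASEH2A, the catalytic subunit of ribonuclease H2, the helicase gene RECQL4 and the PCNA unloader gene ATAD5 had U87MG ratios of -1.38, -1.31 and -1.24 and U251 ratios of -0.48, -0.54 and -0.50, and were not called.

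Of 15 other nucleotide metabolism genes 2 were called lower and 0 higher, beside 2.61% and 1.16% of all genes tested. The list had medians of -0.58 in U87MG and -0.33 in U251. SAMHD1, which degrades deoxynucleotides, had 3.46 RPKM in U87MG KD against 10.6 RPKM in U87MG WT, and 31.2 RPKM in U251 KD against 56.6 RPKM in U251 WT. TK2, the mitochondrial thymidine kinase gene, had 3.52 RPKM in U87MG KD against 6.58 RPKM in U87MG WT, and 2.43 RPKM in U251 KD against 5.86 RPKM in U251 WT. The folate enzyme gene SHMT1 and NUDT1, which clears oxidized nucleotides, were not called; the U87MG ratios were -1.14 for SHMT1 and -1.04 for NUDT1, and the U251 ratios -0.37 and -0.33. Of 9 replication checkpoint genes 1 was called lower and 0 higher, and the list had medians of -0.53 and -0.18. The called gene was WEE1, the kinase that restrains CDK activity, with 4.17 RPKM in U87MG KD against 11.7 RPKM in U87MG WT, and 6.75 RPKM in U251 KD against 13.5 RPKM in U251 WT. ATRIP stood at -0.89 in U87MG and -0.36 in U251, CHEK1 at -0.99 and 0.02, and HUS1 at -0.39 and -0.55, and none of the 3 was called. A list of 12 housekeeping genes, kept as a check on scaling, had medians of -0.28 and -0.12 with 0 called by limma and 2 lower at an unadjusted p under 0.05, so it was also below 0. Among them POLR2A stood at -0.99 in U87MG and -0.35 in U251, GUSB at -0.73 and -0.36, and YWHAZ at -0.35 and -0.31.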

How the data were processed

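Poly(A) RNA-seq of 4 libraries, 1 per line and arm, was deposited by the authors as RPKM per gene, per the file headers; the submitters' processing notes name Bowtie 0.12.2 and hg19. The counting program, annotation, strand setting and handling of reads with several matches were not stated in the labels or headers used. The table held 0 value columns without a library. Library totals were inferred from microRNA hairpin genes, as the total most often implied when each was taken to hold 1 read. Of 161 to 204 such genes above 0 per library, 53 to 88 gave the chosen total. The read counts and counting intervals rest on these totals. RPKM steps gave whole reads within 0.01 for 27928 of 27973 genes above 0 (99.8%) and for all 56 replication genes; they are the smallest whole numbers that fit.

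Ratios were taken on log2(RPKM + 1), which understates changes of low genes. limma 3.58.1 in R 4.3.3 fitted knockdown plus a block for the line, with an intensity trend. Two-sided p-values were adjusted by Benjamini-Hochberg across the 16098 genes that reached 1 RPKM in any library. They rest on 1 residual degree of freedom a gene and on a spread pooled across genes. The pairing is by cell line, as the labels give it. A gene was called at an adjusted p under 0.05. Within a line there was no test; 95% Clopper-Pearson intervals of read ratios cover counting error only. Code in Python 3.11.15 (scipy 1.17.1) matched motifs and gene models. The fit was also run on simulated reads, with the same change in both lines and the same spread for all genes. A change that differs between the lines was not simulated, so that run is no check on the calls given here.

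The genes and lists were chosen with earlier results of these data known. In each step every called gene, the 2 with the lowest and the 1 with the highest mean ratio are given with all 4 values, and in other lists up to 4 with the largest mean ratio in either direction are given, in full where called and otherwise mostly by ratios; further genes (such as POLE4, MCM3, MCM6, CDT1, GMNN, PCNA, POLD1, RPA1, RPA2 and CHAF1A) were named after their values were seen. Alternatives were other pseudocounts, filters, scalings, no trend, no block and leaving out libraries.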

Additional observations from a re-analysis of the deposited data

Results flagged for a closer look

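4 genes had ratios on opposite sides of 0 in the lines. The share of all genes with such ratios was not computed, and with 1 library per group the difference was not tested. The MCM ring gene MCM3 had a ratio of -1.07 in U87MG and 0.03 in U251, a difference of -1.10. The fork-pausing gene TIPIN, which shares sequence with other genes, had -0.66 in U87MG and 0.08 in U251, a difference of -0.74. The origin recognition genes were closer to 0 in both lines: ORC2 had -0.26 in U87MG and 0.09 in U251, a difference of -0.35, and ORC3 had 0.05 in U87MG and -0.13 in U251, a difference of 0.18.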

How the results depend on the processing

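The number of replication genes called lower by limma differed between settings. It was 20 as reported (2.61% of all genes), 19 with a pseudocount of 0.1 (2.68%) and 23 after quantile normalization (3.19%). A minimum of 5 RPKM gave 28 (5.65%) and mRNA rows only gave 31 (6.53%). There were 10 without the intensity trend (1.07%), 6 with a pseudocount of 5 (0.323%) and 6 after trimmed-mean rescaling (0.28%). The count was 0 without the filter on low values and 0 without the cell line as a replicate block, the pairing the labels give. In these last 2 settings 0 of all genes were called, so the counts of 0 are not particular to the replication genes. At an unadjusted p under 0.05 the last 2 settings had 28 and 7 genes lower, beside 6.76% and 1.14% of all genes. None was called higher under any of these settings. With a pseudocount of 5 the median ratio in U87MG was -0.93 and 4 genes were at least 2-fold lower in U251. The limma estimate of SRSF1 was -2.62 as reported, without the filter (adjusted p = 0.42) and without the replicate block (adjusted p = 0.9998), and missed the threshold in the last 2, and its adjusted p ran from 8.8e-06 to 0.022 under the others; leaving out the libraries of 1 line gave -2.71 to -2.52, with no test. The estimate of ORC3 was 0.012 after trimmed-mean rescaling. Over all genes 420 were called lower and 186 higher, against 45 and 35 after trimmed-mean rescaling. The causes were not tested. Every call rests on 1 residual degree of freedom per gene and on a spread that limma pooled across genes. The weight of that pooled spread, in degrees of freedom, was 6.74 as reported. It ran from 2.07 without the replicate block to 11.6 with mRNA rows only. Depth limits only the counting intervals.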

Other observations

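Genes next to replication were also examined as groups, beside 2.61% of all genes tested called lower; differences between the lists were not tested. Of 7 histone chaperone genes 1 was called lower by limma and 0 higher, with median ratios of -0.57 in U87MG and -0.02 in U251. It was ASF1B, which carries new histones to the fork, with 2.54 RPKM in U87MG KD against 9.31 RPKM in U87MG WT and 8.08 RPKM in U251 KD against 15.1 RPKM in U251 WT. SSRP1 stood at -0.61 in U87MG and -0.24 in U251, SUPT16H at -0.74 and -0.02, and SLBP at -0.57 and -0.15. Of 8 translesion polymerase genes 2 were called lower and 0 higher, with median ratios of -0.63 in U87MG and -0.30 in U251. REV3L, the catalytic subunit of polymerase zeta, had 2.41 RPKM in U87MG KD against 5.97 RPKM in U87MG WT and 3.42 RPKM in U251 KD against 7.71 RPKM in U251 WT. PRIMPOL, a primase that restarts stalled forks, had 4.496 RPKM in U87MG KD against 10.3 RPKM in U87MG WT and 2.18 RPKM in U251 KD against 3.98 RPKM in U251 WT. Neither POLQ, at -1.29 in U87MG and -0.25 in U251, nor MAD2L2, at -0.59 and -0.46, was called. Of 7 mitochondrial replication genes 0 were called in either direction by limma and 1 was lower at an unadjusted p under 0.05, and their median ratio was -0.42 in U87MG and -0.03 in U251. The polymerase gene POLRMT was at -0.65 in U87MG and at -0.26 in U251, MGME1 had -0.44 and -0.09, and TFAM had -0.43 and -0.04. The helicase gene TWNK had 11.9 RPKM in U87MG KD against 12.0 RPKM in U87MG WT and 17.2 RPKM in U251 KD against 11.9 RPKM in U251 WT.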
